A study of Mus musculus with 32 samples.

Results

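The genes described here code for the receptor subunits that bind glutamate and γ-aminobutyric acid (GABA). They were taken by symbol from the annotation: every protein-coding gene of the count table named as an AMPA (Gria), kainate (Grik), NMDA (Grin) or delta (Grid) subunit, as a metabotropic glutamate receptor (Grm), or as a GABA-A (Gabr) or GABA-B (Gabbr) subunit. The rule gave 47 genes among 51912 gene identifiers, and used no measured value. Grid2ip, a scaffold protein whose symbol also begins with Grid, was not counted as a subunit.

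Nuclear RNA came from the longitudinal muscle layer and attached myenteric plexus of C57BL/6 mice kept under specific pathogen-free conditions. All animals had received the virus AAV9-CaMKII-EGFPKASH by vein 5 weeks earlier, which puts the fluorescent protein EGFP on the nuclear envelope of cells that take up the virus and use the CaMKII promoter. EGFP-positive nuclei are the neuronal group and EGFP-negative nuclei the non-neuronal group of the labels, so neurons without EGFP would fall among the non-neuronal nuclei. Nuclei of colon and of small intestine (SI), from mice of the University of Bern and of the Francis Crick Institute, gave 8 groups of 4 libraries: neuronal Bern colon, Bern SI, Crick colon and Crick SI, and the same 4 for non-neuronal nuclei. A library is called here by its label (Col or Si, Pos for neuronal or Neg for non-neuronal) and its number. The labels used here give neither the age of the mice nor the animals behind each library, so p-values measure the spread between libraries.

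Glutamate and GABA are the main fast excitatory and inhibitory transmitters of the brain. AMPA, kainate and NMDA receptors are cation channels opened by glutamate, and GABA-A receptors are chloride channels opened by GABA. Metabotropic glutamate receptors and GABA-B receptors act through G proteins. In the gut wall acetylcholine carries most fast transmission between myenteric neurons, and receptors for glutamate and GABA have been described on some of these neurons.

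The 16 Bern libraries held 2394481 to 4618379 counts and the 16 Crick libraries 3788120 to 8350833 counts, ranges that overlap. The number of genes with counts did not overlap: it was 15641 to 22406 in Bern and 25675 to 34994 in Crick libraries. What part depth has in this gap was not tested. The receptor genes took 0.209% to 0.451% of the counts in neuronal libraries and 0.0545% to 0.20% in non-neuronal libraries, 2 ranges that do not overlap. The summed level of 11 pan-neuronal markers was 2074 to 5013 CPM (each count scaled by the size of its library) in neuronal, against 44.2 to 1568 CPM in non-neuronal libraries. The highest non-neuronal sums were 763 to 1568 CPM in Bern_ColNeg and 771 CPM in Bern_SiNeg 1. Smooth muscle markers summed to 525 to 1612 CPM in neuronal and 6194 to 24295 CPM in non-neuronal libraries.

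Levels of different genes were compared per kilobase of merged exons, as CPM per kb. In neuronal nuclei the order began with Gria2, an AMPA subunit that limits calcium entry, at 38.9 CPM per kb. Grm7, a metabotropic receptor known from presynaptic terminals, stood at 37.8 CPM per kb, Gabbr1, the GABA-binding subunit of the GABA-B receptor, at 36.9 CPM per kb and Grik5, a kainate subunit that needs a partner to form a channel, at 36.8 CPM per kb. Grik1, Gria4 and Grin1 were also high, at 33.4, 30.3 and 22.8 CPM per kb. These are means over 16 libraries that spread widely, and neighbours in this order overlap in their libraries.

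In non-neuronal nuclei the order was different. Gabbr1 led at 25.2 CPM per kb, ahead of Grik5 at 12.4, Gria3 at 8.27, Grik3 at 6.85, Grm8 at 6.06 and Grik1 at 5.70 CPM per kb. Low in both sorts were GABA-A alpha subunits, which help form the GABA site: Gabra5 reached 0.720 CPM per kb in neuronal nuclei, mostly through 1 library, and Gabra2 reached 0.25 CPM per kb in non-neuronal nuclei. The glutamate-binding NMDA subunits Grin2a, Grin2b, Grin2c and Grin2d stood at 0.116, 0.221, 0.0878 and 1.19 CPM per kb in neuronal nuclei, against 22.8 CPM per kb for Grin1, the subunit every NMDA receptor contains.

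**Figure D1:**
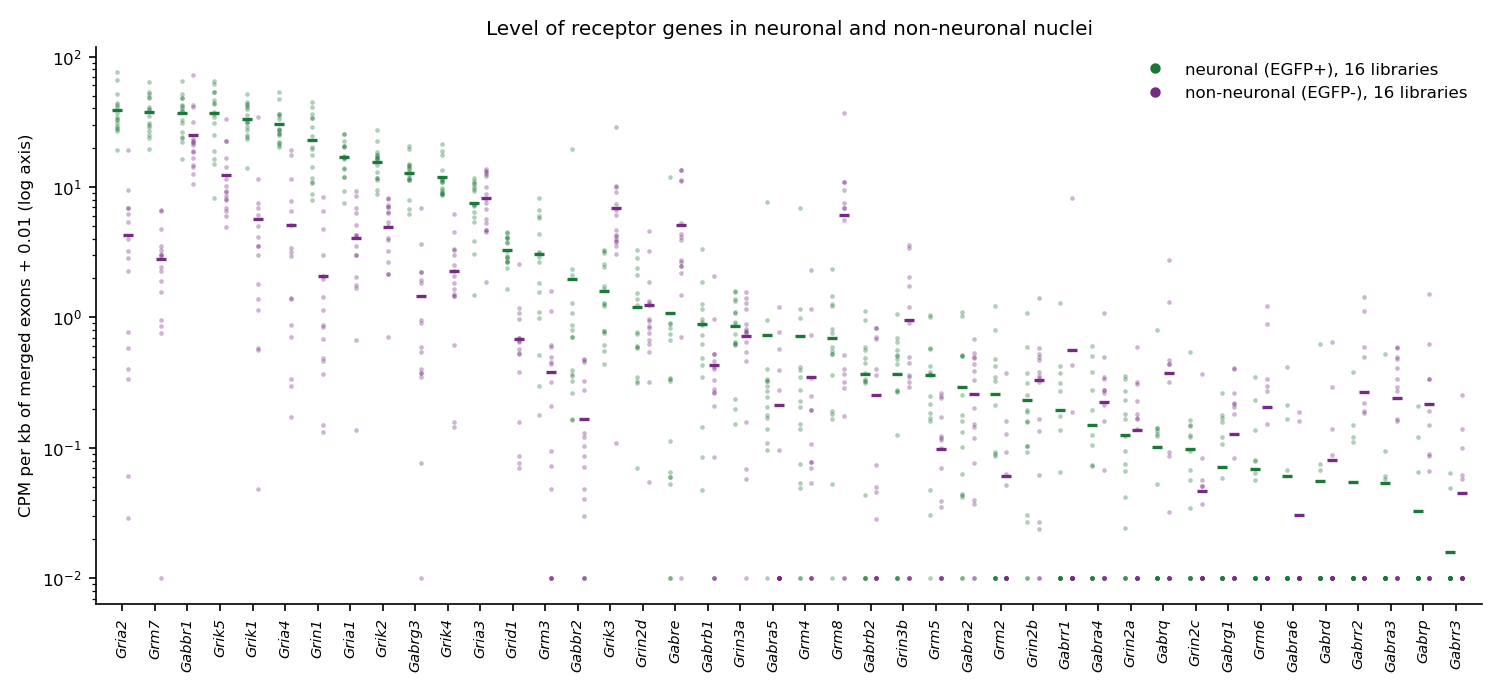
Level of 42 receptor genes in CPM per kb of merged exons plus 0.01 (log axis), ordered by the neuronal mean; points are libraries (16 neuronal left, 16 non-neuronal right) and short bars are means. Gria2, Grm7, Gabbr1 and Grik5 lead in neuronal nuclei at 36.8 to 38.9 CPM per kb, while Grik3, Gabre and Grm8 stand out with higher non-neuronal means.

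Neuronal nuclei carried far more RNA of most abundant receptor genes than non-neuronal nuclei. Of the 35 receptor genes with enough counts to test, 21 were higher in neuronal nuclei, 3 were lower and 11 did not pass (edgeR quasi-likelihood test on values averaged over segments and facilities, adjusted p under 0.05). One of the 3, Grm8, was lower in SI and higher in colon. Of the 21, Gabrb1, Gabrb2 and Gabra5 had a higher non-neuronal mean in some of the facilities and segments. In this comparison 43.5% of all 21521 genes tested passed, 21.9% as higher and 21.6% as lower, so a call alone says little, and 60% of the tested receptor genes were called higher. The median log2 fold change, neuronal over non-neuronal, was 1.67 over the receptor genes and -0.01 over all genes tested. In bulk samples a larger share of expressing cells and more RNA per cell cannot be told apart.

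Of the 4 AMPA subunits 3 rose. Gria4 ranged over 127, 172 and 338 CPM (lowest, median and highest) in the 16 neuronal libraries and over 1.03, 19.2 and 121 CPM in the 16 non-neuronal libraries. The libraries of the sorts did not overlap, and the log2 fold change was 3.58 ± 0.21 (SE, adjusted p = 2.02e-16). Gria2 ranged over 300.3, 529 and 1177 CPM in neuronal, against 0.296, 47.4 and 299 CPM in non-neuronal libraries, a log2 fold change of 3.85 ± 0.36 (adjusted p = 3.31e-11). The sorts did not overlap, but only just: the lowest neuronal library, Bern_ColPos 1 (300.3 CPM), lay beside the highest non-neuronal one, Bern_ColNeg 1 (299 CPM). Gria1 rose by 2.09 ± 0.30 on the log2 scale (adjusted p = 3.37e-07). Gria3 was the exception, with 14.6, 72.4 and 115 CPM in neuronal, against 18.3, 76.4 and 134.6 CPM in non-neuronal libraries, a log2 fold change of -0.21 ± 0.22 that did not pass (adjusted p = 0.476). In Bern colon alone its neuronal libraries (14.6 to 53.1 CPM) lay below the non-neuronal ones (66.5 to 129.8 CPM).

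All 5 kainate subunits passed, 4 of them as higher. Grik1, a subunit that forms channels by itself, had 94.4, 212 and 349.6 CPM in neuronal, against 0.256, 23.7 and 232 CPM in non-neuronal libraries, and rose by 3.17 ± 0.31 on the log2 scale (adjusted p = 1.04e-10). Grik4, Grik2 and Grik5 rose by 2.58 ± 0.29, 1.67 ± 0.23 and 1.63 ± 0.24 (adjusted p = 1.90e-09, 1.32e-07 and 7.29e-07). Grik3 went the other way, with 3.88, 11.3 and 29.3 CPM in neuronal, against 0.888, 40.2 and 258 CPM in non-neuronal libraries, a log2 fold change of -2.03 ± 0.35 (adjusted p = 7.45e-06). Its neuronal libraries lay wholly below the non-neuronal ones in Bern colon and Crick SI, and overlapped them in Crick colon and Bern SI, where Bern_SiNeg 3 had 0.888 CPM.

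Among NMDA subunits the obligatory Grin1 rose, with 77.2, 192 and 438 CPM in neuronal, against 1.18, 9.67 and 81.6 CPM in non-neuronal libraries (log2 fold change 3.94 ± 0.29, adjusted p = 8.48e-14). Within each facility and segment its sorts did not overlap. None of the 5 other NMDA subunits tested passed: Grin2a at 1.29 ± 0.75, Grin2b at -0.62 ± 0.66, Grin2d at -0.14 ± 0.42, Grin3a at 0.27 ± 0.41 and Grin3b at -1.28 ± 0.65 (log2 fold change ± SE, adjusted p = 0.113 to 0.842). Grin1 shares 1307 exonic bases with its antisense transcript Grin1os, which averaged 8.11 CPM in neuronal, against 2.12 CPM in non-neuronal libraries, and Grin3b shares 1059 bases with Tmem259 on the opposite strand. No strand setting is given in the sources used here, so reads of such partners cannot be told apart.

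Grid1, a delta subunit of the family that binds cerebellins rather than being opened by glutamate alone, rose by 2.35 ± 0.39 (adjusted p = 4.69e-06). Among metabotropic receptors, Grm7, Grm3 and Grm5 rose. Grm8, a receptor of the same group as Grm7, was called lower on average over segments, but its direction differed between them: it was lower in neuronal than in non-neuronal nuclei of SI and higher in those of colon. Grm7 had 114, 217 and 375 CPM in neuronal, against 0, 15.8 and 38.9 CPM in non-neuronal libraries, with no overlap (log2 fold change 3.90 ± 0.30, adjusted p = 2.26e-13). Grm3, a receptor that lowers cyclic AMP, averaged 9.38 ± 7.53 CPM in neuronal, against 1.13 ± 1.36 CPM in non-neuronal libraries (SD, n = 16 each) and rose by 2.83 ± 0.58 (edgeR adjusted p = 1.06e-04). Grm5, coupled to phospholipase C, was scarce, at 3.63 ± 3.20 CPM in neuronal, against 0.909 ± 0.937 CPM in non-neuronal libraries, and rose by 2.22 ± 0.67 (adjusted p = 0.0062). Grm4 (0.65 ± 0.75) did not pass.

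Most GABA-A subunits that passed rose. Gabrg3, a gamma subunit, had 73.8, 151 and 245 CPM in neuronal, against 0, 8.76 and 81.8 CPM in non-neuronal libraries (3.60 ± 0.35, adjusted p = 7.04e-11). Gabra5 had at most 3.56 CPM in every library other than Bern_ColPos 1, which had 22.6 CPM, and the call (2.06 ± 0.80, adjusted p = 0.0342) was lost without that library (0.134) and without Bern_SiPos 2 (0.0823), Crick_ColPos 2 (0.0613), Crick_SiNeg 2 (0.0502) or Crick_SiPos 2 (0.0517). In Crick mice Gabra5 averaged 1.20 CPM in neuronal, against 1.31 CPM in non-neuronal nuclei of colon, and 0.827 against 0.851 CPM in SI. The alpha subunits Gabra2 (-0.35 ± 0.54) and Gabra4 (-1.18 ± 0.75) did not pass, and Gabrq, the theta subunit, gave no usable estimate.

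Calls of the beta subunits Gabrb1 and Gabrb2 were weak, and the direction of their means differed between facilities and segments. Gabrb1 averaged 7.40 CPM in neuronal, against 9.50 CPM in non-neuronal nuclei of Bern colon, and 6.82 against 7.65 CPM in Crick colon. Gabrb2 averaged 2.63 CPM in neuronal, against 3.10 CPM in non-neuronal nuclei of Crick SI. Gabrb2 (2.12 ± 0.74, adjusted p = 0.0187) did not pass without Bern_ColPos 4 (1) or Bern_SiPos 4 (0.0536). The call of Gabrb1 (1.34 ± 0.53, adjusted p = 0.0393) was lost on leaving out any of 21 libraries (0.0501 to 0.079), which are all but Bern_ColNeg 4, Bern_ColPos 2 and 4, Bern_SiNeg 1, Bern_SiPos 1 and 3, Crick_ColNeg 1, Crick_ColPos 3 and 4, Crick_SiNeg 3 and Crick_SiPos 4. Gabre, the epsilon subunit, fell: it had 0, 1.53 and 56.1 CPM in neuronal, against 0, 15.7 and 64.4 CPM in non-neuronal libraries (log2 fold change -3.77 ± 0.58, adjusted p = 1.24e-06). Its neuronal libraries lay below the non-neuronal ones in Bern colon, Crick colon and Crick SI and overlapped them in Bern SI.

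Both GABA-B subunits rose, by different amounts. Gabbr1 averaged 287 ± 99.9 CPM in neuronal, against 196 ± 121 CPM in non-neuronal libraries (SD, n = 16 each), a log2 fold change of only 0.65 ± 0.17 (edgeR adjusted p = 0.00173), and its sorts separated in 1 of the 4 strata of facility and segment. Gabbr2, the partner that couples to G proteins, had 1.02, 4.64 and 130.4 CPM in neuronal, against 0, 0.571 and 3.12 CPM in non-neuronal libraries (3.07 ± 0.66, adjusted p = 2.17e-04). The 130.4 CPM belong to Bern_ColPos 1, the library that also held the high Gabra5 value.

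**Figure D2:**
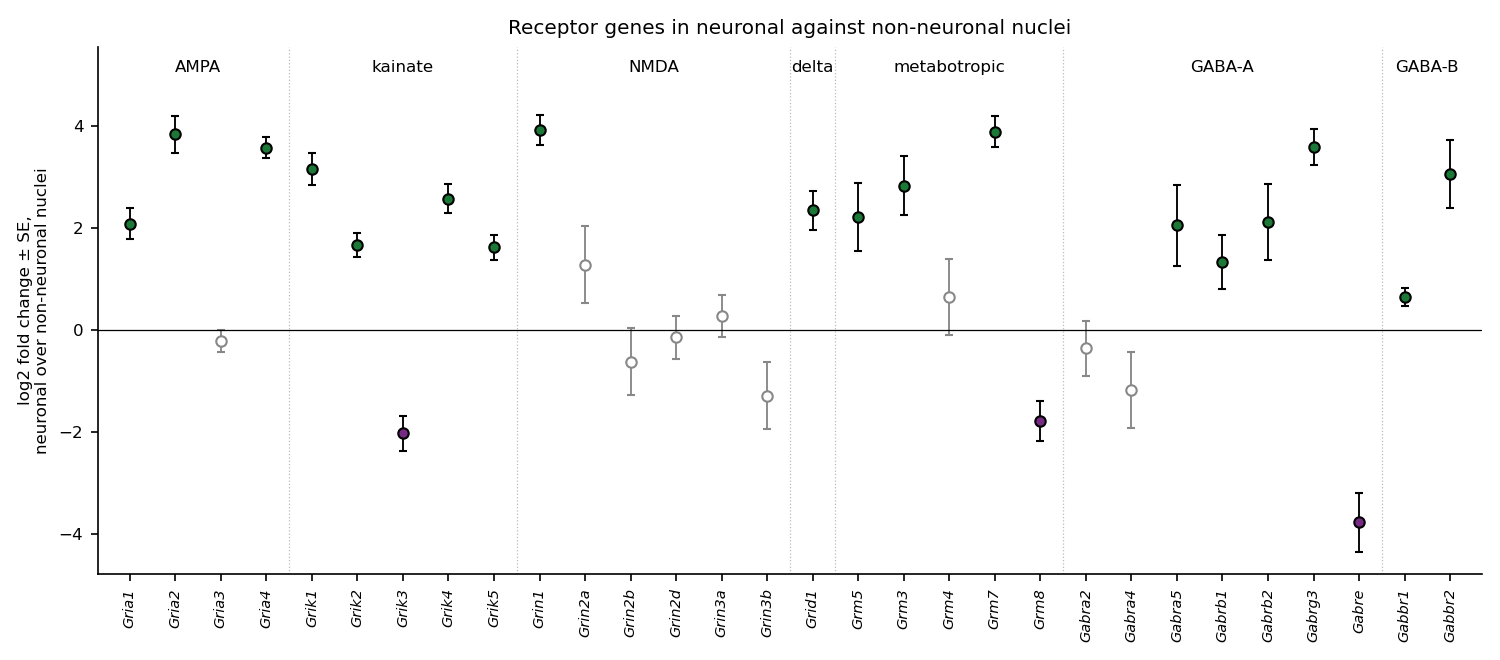
Log2 fold change of neuronal over non-neuronal nuclei (bars are SE) for 30 receptor genes tested, in order of class; filled points passed the edgeR test at an adjusted p under 0.05 and open points did not. Gabrq, whose SE could not be estimated, is not drawn; Grik3, Grm8 and Gabre are the 3 filled points below 0.

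Some receptor genes that rose had all neuronal libraries above all non-neuronal libraries in each of the 4 strata. Among them were Gria1, Gria2, Gria4, Grik2, Grik4, Grin1, Grm7 and Gabrg3. How often the libraries of all genes tested separate in this way was not counted. The level that remained in non-neuronal nuclei was set beside that of the pan-neuronal markers. In Bern colon the non-neuronal mean was 25.1% of the neuronal mean for the median of the 21 receptor genes and 23.6% for the median pan-neuronal marker (6.42% to 37.8% over 11 markers). In Crick colon the medians were 14.4% for receptor genes and 11.1% for markers. In SI they stood further apart: in Bern the medians were 10.6% for receptor genes and 3.02% for markers, and in Crick 25.7% for receptor genes and 3.98% for markers.

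Some receptor genes followed the markers and some did not. In Crick SI, Grin1 (3.43%), Gria2 (2.81%), Grik1 (2.56%) and Gabrg3 (4.51%) lay within the marker range of 2.45% to 18.9%. Gabbr1 (64.2%), Gria1 (41.8%), Grik2 (39.7%) and Grik5 (30.2%) lay above it there. The scarce Gabrb2 (118%) and Gabra5 (103%) lay higher still. In Bern SI, Gabbr1 (94.1%), Grik5 (43.1%), Grik2 (30.6%) and Gria1 (28.3%) again lay above the marker range of 0.732% to 7.90%. Colon had such genes as well. In Bern colon, Gabrb1 (128%), Grik1 (55.0%), Gabbr1 (51.8%), Gria4 (46.5%) and Grik2 (43.1%) lay above the highest marker (37.8%). In Crick colon, Gabrb1 (112%), Gabra5 (109%), Gabrb2 (82.2%) and Gabbr1 (52.8%) were among those above the highest marker (22.7%). What part EGFP-negative neurons have in these values was not tested.

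**Figure D3:**
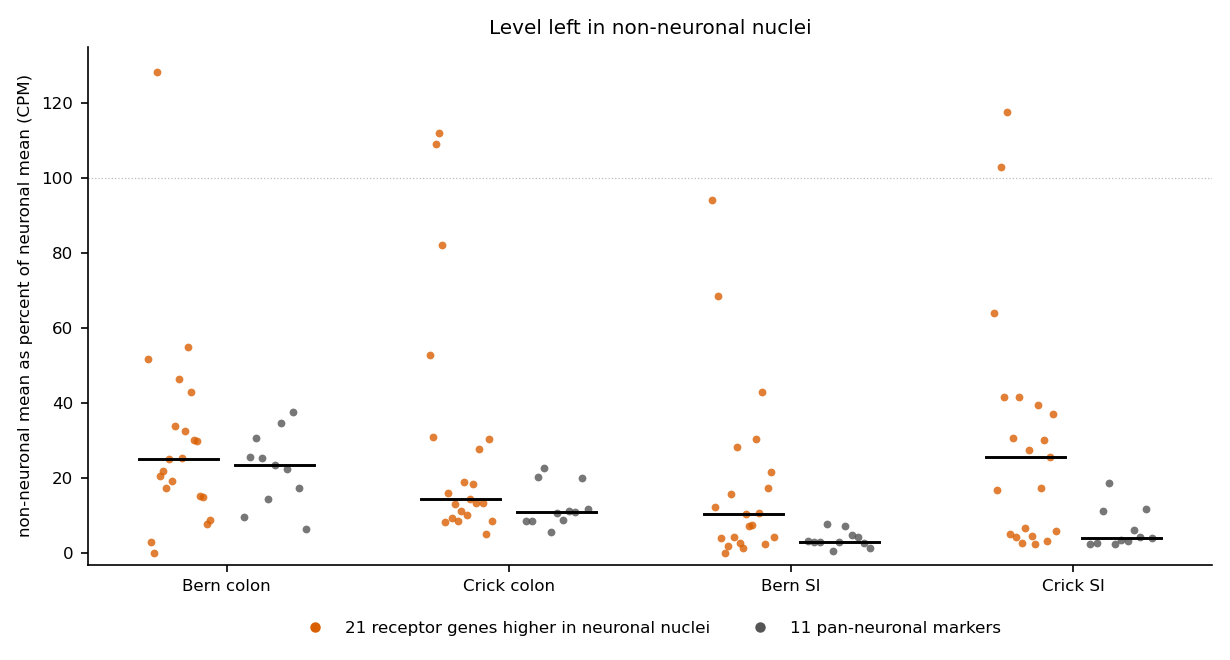
Mean CPM in non-neuronal nuclei as a percentage of the mean CPM in neuronal nuclei of the same facility and segment, for the 21 receptor genes called higher in neuronal nuclei (orange, left) and 11 pan-neuronal markers (grey, right); each point is a gene and each bar a median. In Bern colon both medians are near 25%. Some receptor genes reach above the markers in colon as well as SI, with Gabrb1 at 128% in Bern colon and Gabbr1 at 94.1% in Bern SI.

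Sequences just upstream of the start are shown for 6 genes: the 3 with the largest rises among those separated in all strata that have a promoter window in the RefSeq table (build GRCm38.p6), and the 3 called lower in the values averaged over segments, of which Grm8 is higher in neuronal nuclei of colon. Of the 47 genes 32 had a window. The bases run up to 250 before the RefSeq start and leave out bases inside any annotated exon. Capitals mark the letters GGACAG, the right part of repressor element 1, a site bound by the repressor REST in many neuronal genes, and GGGCGG, the GC box, on either strand (CTGTCC and CCGCCC on the opposite one). The left part of repressor element 1, TTCAGCACC, and the cAMP response element TGACGTCA were searched as well and are in none of the 6. Only exact letters were searched. In Gria2 the marked CTGTCC is followed, after gc, by ggtgctaaa. This differs by 1 letter from GGTGCTGAA, which is TTCAGCACC on the opposite strand. Binding of REST was not tested. The 3 genes higher in neuronal nuclei come first.
Grin1 (chr2:25319188-25319437, minus strand): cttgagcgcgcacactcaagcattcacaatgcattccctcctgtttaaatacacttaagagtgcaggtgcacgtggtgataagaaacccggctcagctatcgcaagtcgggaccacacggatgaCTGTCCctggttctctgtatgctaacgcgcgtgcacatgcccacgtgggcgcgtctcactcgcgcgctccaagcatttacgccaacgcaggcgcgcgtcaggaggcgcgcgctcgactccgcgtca
Grm7 (chr6:110645262-110645511, plus strand): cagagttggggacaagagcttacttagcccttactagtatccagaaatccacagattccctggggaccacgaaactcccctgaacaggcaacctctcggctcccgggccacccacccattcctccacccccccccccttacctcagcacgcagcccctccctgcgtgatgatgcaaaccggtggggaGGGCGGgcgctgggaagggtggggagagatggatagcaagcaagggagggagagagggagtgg
Gria2 (chr3:80802836-80803085, minus strand): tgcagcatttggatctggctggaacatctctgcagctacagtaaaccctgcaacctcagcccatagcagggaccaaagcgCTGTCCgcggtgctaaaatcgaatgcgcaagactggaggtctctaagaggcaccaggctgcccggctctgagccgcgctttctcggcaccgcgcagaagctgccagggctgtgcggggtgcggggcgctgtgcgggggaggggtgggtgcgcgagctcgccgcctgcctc
Gabre and Grik3, lower in neuronal nuclei, follow, and then Grm8.
Gabre (chrX:72274804-72274971, minus strand): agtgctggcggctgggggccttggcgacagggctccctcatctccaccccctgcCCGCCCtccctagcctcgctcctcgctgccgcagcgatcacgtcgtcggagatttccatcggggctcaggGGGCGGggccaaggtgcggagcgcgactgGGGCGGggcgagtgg
Grik3 (chr4:125490446-125490695, plus strand): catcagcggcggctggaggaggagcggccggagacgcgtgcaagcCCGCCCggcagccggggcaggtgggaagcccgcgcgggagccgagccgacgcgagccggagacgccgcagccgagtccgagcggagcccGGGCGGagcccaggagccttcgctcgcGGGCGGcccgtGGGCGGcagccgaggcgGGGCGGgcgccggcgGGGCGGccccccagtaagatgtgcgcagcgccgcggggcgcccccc
Grm8 (chr6:28135179-28135396, minus strand): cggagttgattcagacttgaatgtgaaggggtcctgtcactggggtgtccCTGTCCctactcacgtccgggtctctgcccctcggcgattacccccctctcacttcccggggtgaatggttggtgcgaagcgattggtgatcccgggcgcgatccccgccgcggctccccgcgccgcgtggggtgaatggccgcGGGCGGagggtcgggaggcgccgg

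GGACAG occurred in Grin1, Gria2 and Grm8, and the GC box in Grm7, Gabre, Grik3 and Grm8. In the upstream 250 bases of the 39 windows of receptor genes, 33.3% held GGACAG, 46.2% the GC box, 2.56% TTCAGCACC (only Grm2) and 0 of 39 TGACGTCA. Of all 32851 windows, 18.7% held GGACAG, 32.7% the GC box, 0.301% TTCAGCACC and 1.55% TGACGTCA. These are matches of letters, and the median GC content was 58.8% in receptor gene windows against 52.4% in all windows.

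Within neuronal nuclei, 5 of 31 receptor genes tested (16.1%) differed between colon and SI. Grm8 and Grm3 were higher in colon and Gabre, Gabra2 and Gria3 lower, 2 and 3 genes, against 5.51% of all 17419 genes tested that passed, 1.97% as higher and 3.54% as lower. The other 26 did not pass. Abundant ones such as Gria2, Grik1, Grm7 and Grin1 were among those 26.

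Grm8 was higher in colon neurons. It had 5.75, 5.36, 5.09 and 14.3 CPM in Bern colon and 1.81, 0.426, 1.55 and 0 CPM in Bern SI. In the Crick mice it had 12.004, 12.5, 7.96 and 23.4 CPM in colon and 5.10, 7.36, 1.69 and 3.51 CPM in SI. All colon libraries lay above all SI libraries of the same facility, and the log2 fold change over both facilities was 2.28 ± 0.59 (edgeR adjusted p = 0.0224). The call was lost without Crick_ColPos 4 (0.0559), Crick_SiPos 3 (0.0511) or Crick_SiPos 4 (0.0501), and with the replicate number as a block (0.0665).

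Grm3 averaged 14.6 ± 6.99 CPM in colon and 4.15 ± 3.21 CPM in SI neuronal nuclei (SD, n = 8 each; 1.89 ± 0.52 on the log2 scale, edgeR adjusted p = 0.0319). The Crick colon libraries (13.3 to 24.9 CPM) lay above the Crick SI libraries (3.01 to 8.84 CPM), while the Bern libraries overlapped. The call was the weakest of the 5: it was lost on leaving out any of 11 libraries (0.0503 to 0.0696), all but Bern_ColPos 2, 3 and 4, Bern_SiPos 2 and Crick_SiPos 3. It was also lost with the replicate number as a block (0.0762) and in 1 fit of all 32 libraries (0.177).

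The 3 genes lower in colon neurons, Gabre, Gabra2 and Gria3, were not among those higher in neuronal than in non-neuronal nuclei. Gabre had 0, 0.487, 0 and 0.260 CPM in Bern colon and 3.11, 4.26, 1.55 and 56.1 CPM in Bern SI neuronal libraries. In Crick mice it had 0.235, 0.201, 0.234 and 1.59 CPM in colon and 3.48, 4.18, 1.50 and 3.88 CPM in SI neuronal libraries. The Bern libraries did not overlap and the Crick libraries did, at Crick_ColPos 4, and the log2 fold change was -4.35 ± 0.87 (edgeR adjusted p = 0.0032).

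Gabra2 had 0, 0.244, 0.255 and 0 CPM in Bern colon and 0.259, 8.31, 7.75 and 3.80 CPM in Bern SI neuronal libraries. In Crick mice Gabra2 had 0.706, 0.402, 0.936 and 1.3 CPM in colon and 1.16, 3.85, 1.88 and 3.76 CPM in SI. Only Crick_ColPos 4 reached into the SI range of its facility, and the log2 fold change was -3.36 ± 0.79 (edgeR adjusted p = 0.0114). Gria3 had 29.9, 53.1, 37.9 and 14.6 CPM in Bern colon and 106, 115, 95.7 and 104 CPM in Bern SI neuronal libraries. In Crick mice Gria3 had 72.5, 92.3, 70.0 and 72.2 CPM in colon and 109, 58.2, 98.0 and 63.3 CPM in SI. The segments were apart in Bern (-1.69 ± 0.35) and overlapped in Crick (-0.14 ± 0.34), and the fold change over both was -0.91 ± 0.24 (edgeR adjusted p = 0.0247). The call of Gria3 was lost without Crick_ColPos 1 (0.0647), Crick_ColPos 3 (0.0604), Crick_SiPos 1 (0.0768) or Crick_SiPos 3 (0.0543), and in 1 fit of all 32 libraries (0.113).

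Markers of another cell type moved with the segment in the neuronal sort. Markers of interstitial cells of Cajal (ICC), which pace gut muscle, were measured as a sum over 5 genes: it was 264 to 471 CPM in colon and 662 to 2325 CPM in SI neuronal libraries. Most of the colon sum was Etv1, at means of 384 CPM in Bern colon and 305 CPM in Crick colon neuronal nuclei. The mean of Etv1 was higher in neuronal than in non-neuronal nuclei in each facility and segment. Kit, which defines these cells, averaged 7.71 CPM in Bern colon, 255 CPM in Bern SI, 6.83 CPM in Crick colon and 437 CPM in Crick SI neuronal nuclei, and up to 2 of the 5 were at 0 in a colon library. The mitochondrially encoded share was 0.0769% to 0.143% in colon and 0.269% to 1.6% in SI neuronal libraries. By edgeR 5 of the 5 ICC markers, 10 of 13 mitochondrially encoded genes and 3 of 10 smooth muscle markers were lower in colon. The part of these in the levels of the 5 receptor genes was not tested. All 11 pan-neuronal markers were tested and none differed between segments in neuronal nuclei.

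**Figure D4:**
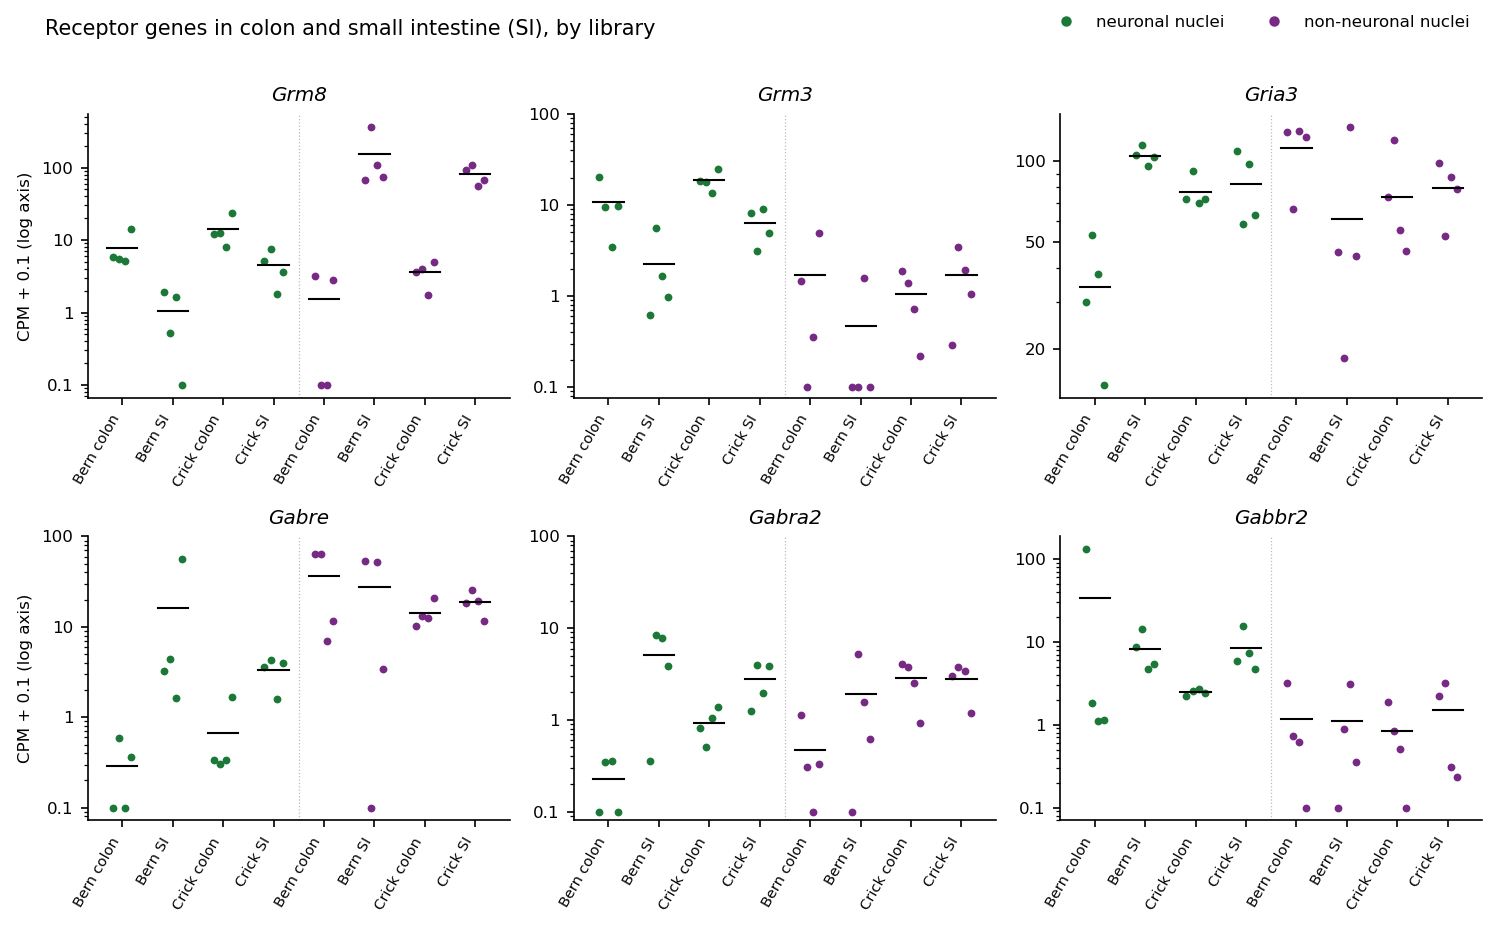
CPM plus 0.1 (log axis) of 6 receptor genes in each library, by facility and segment, neuronal nuclei left of the dotted line and non-neuronal nuclei right of it; horizontal bars are group means. Grm8 lies higher in colon than in SI among neuronal nuclei and far lower in colon than in SI among non-neuronal nuclei, and Gabbr2 shows Bern_ColPos 1 at 130.4 CPM.

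In non-neuronal nuclei the receptor gene with the largest segment difference among those called was Grm8. It had 3.08, 0, 0 and 2.74 CPM in Bern colon and 68.1, 365, 107 and 75.1 CPM in Bern SI. In Crick mice it had 3.56, 3.90, 1.63 and 4.96 CPM in colon and 93.5, 107, 55.1 and 67.9 CPM in SI. All colon libraries lay far below all SI libraries, and the log2 fold change was -5.73 ± 0.61 (edgeR adjusted p = 4.04e-06). Within facilities it was -6.90 ± 0.92 in Bern and -4.55 ± 0.81 in Crick, and it kept the call without any 1 library, Bern_SiNeg 2 with its 365 CPM included (-6.03 to -5.27 over all alternatives tried).

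Markers of other cell types moved with the segment in this sort as well. Of 8 markers of fibroblasts and PDGFRA cells 4 were lower in colon, and their sum was 883 to 1535 CPM in colon and 1610.2 to 2694 CPM in SI libraries, without overlap. Lower in colon were also 3 of 10 smooth muscle markers and 10 of 13 mitochondrially encoded genes. Higher in colon were 5 of 7 endothelial and 4 of 8 epithelial markers, of which 1 other was lower. Of 6 mesothelial markers 1 was lower in colon. Their sums were 46.2 to 183 CPM in Bern colon and 132 to 163 CPM in Bern SI. In Crick mice the mesothelial sums were 58.2 to 146 CPM in colon and 190 to 414 CPM in SI, without overlap. Of 8 glial markers 1 was higher and 1 lower, of 9 macrophage markers 1 was higher, and of 6 lymphocyte markers 0 passed. The 5 ICC markers did not pass by edgeR, with sums of 387 to 564 CPM in colon and 265 to 1412 CPM in SI libraries. The part of these cells in the Grm8 values was not tested.

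Altogether 8 of the 29 receptor genes tested (27.6%) passed between colon and SI in non-neuronal nuclei, 5 higher and 3 lower in colon, against 9.32% of all 19164 genes tested, 5.79% as higher and 3.54% as lower. Among the higher ones were Gria4, Gria2, Grik1 and Grin1. Gria4 had 121, 110.2, 73.1 and 49.3 CPM in Bern colon and 1.80, 4.38, 2.07 and 1.03 CPM in Bern SI, and 32.1, 41.1, 21.5 and 19.8 CPM in Crick colon and 8.64, 5.45, 8.81 and 18.5 CPM in Crick SI. Colon lay above SI in both facilities (3.27 ± 0.43 on the log2 scale, edgeR adjusted p = 5.88e-05). Gria2, Grik1 and Grin1 rose by 2.85 ± 0.64, 2.55 ± 0.59 and 2.20 ± 0.56 (adjusted p = 0.00716, 0.00836 and 0.0162).

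These 4 are among the genes that were higher in neuronal nuclei, and the pan-neuronal sum moved with them: it was 763 to 1568 CPM in Bern colon and 44.2 to 771 CPM in Bern SI non-neuronal libraries, and 156 to 340.1 CPM in Crick colon and 73.3 to 168 CPM in Crick SI non-neuronal libraries. Of the 11 pan-neuronal markers, Prph, Ret, Syt1 and Elavl4 passed as higher in colon, with log2 fold changes of 2.87, 2.54, 2.29 and 2.26. The part of neuronal RNA in the colon values was not tested. Without 6 libraries that stood out in an earlier look at these data (Bern_ColNeg 1 and 2, Bern_SiNeg 1, Crick_ColNeg 3, Crick_SiNeg 2 and Crick_SiPos 2) 8 receptor genes passed, 7 higher and 1 lower; Grik1 no longer did (adjusted p = 0.123), and others, Gabrg3 and Gabrb1 among them, did.

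The 2 other genes lower in colon were Gabbr1 and Gabrq. Gabbr1 averaged 136 ± 37.8 CPM in colon and 255 ± 147 CPM in SI non-neuronal nuclei (SD, n = 8 each; -0.94 ± 0.25, edgeR adjusted p = 0.0199), with overlap in both facilities, and lost the call without Crick_ColNeg 1 (0.0676), Crick_ColNeg 3 (0.0524) or Crick_SiNeg 2 (0.0594), without the 6 libraries (0.155), and with the replicate number as a block (0.0612). Gabrq was at 0 in all 4 Bern colon libraries and in 3 of 4 Bern SI libraries, with 14.8 CPM in Bern_SiNeg 1. Without that library its log2 fold change was -1.21 (adjusted p = 1), against -4.75 ± 1.32 with it (adjusted p = 0.0285), a fitted value that rests on a group at 0. The call was also lost without Bern_ColNeg 4, Crick_ColNeg 1, 3 or 4, or Crick_SiNeg 2 (0.0502 to 1 over the 6), and with the block (0.0643).

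Whether a segment difference depends on the sort was tested as an interaction, and 7 of 35 receptor genes passed, against 6.48% of all 21521 genes tested. Of those genes 1.09% passed with a positive and 5.39% with a negative value, and of the receptor genes 1 and 6. Grm8 had by far the largest difference: its colon-minus-SI value was higher in neuronal than in non-neuronal nuclei by 7.96 ± 0.82 on the log2 scale (edgeR adjusted p = 2.95e-08). Accordingly Grm8 was higher in neuronal than in non-neuronal nuclei of colon (2.42 ± 0.80 in Bern and 1.97 ± 0.74 in Crick) and lower in those of SI (-7.34 ± 0.95 in Bern and -4.19 ± 0.80 in Crick), and the libraries of the sorts did not overlap in any of the 4 strata. The pooled sort value of -1.78 ± 0.39 (adjusted p = 2.26e-04) therefore averages opposite directions. In SI, Grm8 reached 154 ± 142 CPM in Bern and 80.9 ± 23.7 CPM in Crick non-neuronal nuclei (SD, n = 4 each), the highest of the 8 group means.

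The other 6 interactions were negative, among them Gria4 at -2.93 ± 0.40, Grik1 at -2.68 ± 0.59, Gria2 at -2.62 ± 0.66, Grin1 at -2.27 ± 0.53 and Gabre at -4.28 ± 1.11 (edgeR adjusted p = 1.20e-05 to 0.0157). In the first 4 the segment difference lay in non-neuronal nuclei, where the pan-neuronal sums differed as given above, and in Gabre it lay in neuronal nuclei. The call of Gabre was lost without Bern_SiPos 4 (0.0666), the library with 56.1 CPM, without the 6 libraries (0.0929), and with the replicate number as a block (0.065).

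Between facilities 2 of the 31 receptor genes tested in neuronal nuclei passed, against 7.72% of all 17419 genes tested (4.96% as higher in Bern and 2.76% as lower). Grin1 was higher in Bern, with 438, 395, 351 and 195 CPM in Bern colon and 114, 77.2, 169 and 105 CPM in Crick colon. In SI it had 329, 281, 189.9 and 326 CPM in Bern and 85.7, 238, 104 and 138 CPM in Crick. The colon libraries did not overlap and the SI libraries did, and the log2 fold change over both segments was 1.26 ± 0.24 (edgeR adjusted p = 0.00244). Pan-neuronal sums moved the same way, at 3775 to 5013 CPM in Bern and 2074 to 2897 CPM in Crick neuronal libraries, and their part in this value was not tested. The facilities also differed in depth and in the number of genes with counts, as given above. The part of these in the Grin1 value was not tested.

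In non-neuronal nuclei 4 of 29 receptor genes passed between facilities, against 9.29% of all 19164 genes tested (4.35% as higher in Bern and 4.94% as lower). Gabrb2 and Grin2a were lower in Bern, where they averaged 0.0607 and 0.290 CPM, against 3.05 and 4.24 CPM in Crick (log2 fold changes -5.59 ± 1.16 and -4.98 ± 1.32, adjusted p = 0.00476 and 0.0225). These are genes of few counts, at 0 in 6 to 7 of the 8 Bern libraries. Bern libraries had counts for fewer genes than Crick libraries, and the part of this in these values was not tested. Gabbr1 was higher in Bern, at 253 ± 145 CPM, against 138 ± 51.1 CPM in Crick (SD, n = 8 each; 0.84 ± 0.25, edgeR adjusted p = 0.0357), a call lost without Bern_ColNeg 1, Bern_SiNeg 2, Crick_ColNeg 1, 2 or 3, or Crick_SiNeg 1, 3 or 4 (0.0554 to 0.0793). Without the 6 libraries none of the 4 passed (edgeR adjusted p = 0.0703 to 0.132).

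No receptor gene passed in the interactions with facility. The segment difference of neuronal nuclei differed between facilities in 0 of 31 receptor genes (5 at an unadjusted p under 0.05, and 0 with DESeq2), where 0.00574% of genes tested passed by edgeR. The sort difference differed between facilities in 0 of 35 (4 at an unadjusted p under 0.05, and 0 with DESeq2), where 0.204% passed by edgeR (0.153% higher and 0.0511% lower).

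Genes that work with these receptors were also compared between sorts, where 21.9% of all genes tested passed as higher and 21.6% as lower, with a median log2 fold change of -0.01. Among 15 tested auxiliary subunits of ionotropic glutamate receptors, 10 rose in neuronal nuclei and 0 fell, with a median log2 fold change of 1.92. Cacng8, an AMPA receptor partner, rose by 4.48 ± 0.86, Neto1, a kainate receptor partner, by 4.34 ± 0.68, Shisa7 by 3.36 ± 0.41 and Cacng2, which carries AMPA receptors to the surface, by 3.09 ± 0.66. Of 18 scaffold genes 11 rose, led by Dlgap3 (5.26 ± 0.54), Grid2ip (3.73 ± 0.50), Dlgap1 (3.26 ± 0.23) and Grip1 (3.05 ± 0.34), and 2 fell, Dlg1 (-1.53 ± 0.17) and Homer1 (-1.34 ± 0.25). Of 9 anchors and auxiliary subunits of GABA receptors 4 rose, led by the GABA-B partner Kctd8 (4.01 ± 0.60) and by Lhfpl4, which anchors GABA-A receptors (3.03 ± 0.35), and Kctd12b fell (-4.75 ± 0.68).

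On the side of the transmitters, 5 of 8 genes of synthesis and breakdown rose in neuronal nuclei, among them the GABA-forming enzymes Gad1 (2.46 ± 0.69) and Gad2 (2.16 ± 0.66), the glutaminase Gls2 (2.05 ± 0.50) and Abat (1.00 ± 0.34), which breaks GABA down. Gad1 and Gad2 were scarce, at means of 3.68 and 2.32 CPM in neuronal, against 1.56 and 1.14 CPM in non-neuronal nuclei. They did not rise in every group: Gad2 averaged 1.31 CPM in neuronal, against 3.47 CPM in non-neuronal nuclei of Crick colon. In Crick SI, Gad1 averaged 4.09 CPM in neuronal, against 4.20 CPM in non-neuronal nuclei. Of 7 transporters tested 4 rose and 2 fell. Slc17a6, a vesicular glutamate transporter, rose by 4.09 ± 0.69 to a mean of 8.46 CPM in neuronal nuclei, against 0.948 CPM in non-neuronal nuclei. Slc1a3, the uptake transporter of glia, fell (-4.03 ± 0.73), as did Slc1a1 (-2.92 ± 0.63), while Slc1a6, another glutamate uptake transporter, rose (2.98 ± 0.69). Slc32a1, the vesicular GABA transporter, was at 0 in 7 of 8 group means and at 0.0418 CPM in Crick SI neuronal nuclei, and was not tested.

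In neuronal nuclei 6 of these partner genes differed between colon and SI, 3 higher and 3 lower, where 1.97% of all genes tested passed as higher and 3.54% as lower. They were 3 of 14 auxiliary subunits, 2 of 18 scaffolds and 1 of 8 anchors of GABA receptors, while the 8 genes of synthesis and breakdown and the 6 transporters tested did not pass by edgeR. Kctd16, a GABA-B partner, was higher in colon by 5.67 ± 0.98 (edgeR adjusted p = 0.00115), a fitted value that rests in part on a group at 0. Its means were 20.8 CPM in Bern colon and 0 CPM in Bern SI, and 6.49 CPM in Crick colon and 1.77 CPM in Crick SI. Neto1 was higher by 2.69 ± 0.60 (adjusted p = 0.0075), with means of 23.0 CPM in Bern colon and 2.89 CPM in Bern SI, and 25.5 CPM in Crick colon and 4.61 CPM in Crick SI. Shisa6 was higher by 1.83 ± 0.53, while Cbln1, a ligand of delta receptors, Grid2ip and Dlgap2 were lower (-2.55 ± 0.73, -2.13 ± 0.50 and -1.0 ± 0.22). In non-neuronal nuclei 3 of 17 scaffolds tested, Grid2ip (3.16 ± 0.96), Shank3 (2.91 ± 0.68) and Dlg2 (1.00 ± 0.26) were higher in colon. Of 5 transporters tested 1 was higher, and of 7 anchors of GABA receptors Nlgn2 (-1.37 ± 0.40) was lower. Of all genes tested there, 5.79% passed as higher and 3.54% as lower. The pan-neuronal sums of this sort differed between segments, as given above, and their part in these values was not tested.

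The 12 receptor genes not tested between sorts stayed below the filter on low counts. They include Grin2c, Grm2, Grm6, Gabra3, Gabra6, Gabrg1, Gabrd, Gabrp and the rho subunits Gabrr1, Gabrr2 and Gabrr3. Their highest group means ran from 0.356 CPM (Gabrr3, Crick SI non-neuronal) to 4.68 CPM (Gabrr1, Bern SI non-neuronal, with 18.7 CPM in Bern_SiNeg 2 alone). A group with 0 counts in all 4 libraries allows up to 3 counts in that group (0.127 to 0.239 CPM), so lower levels were not detectable at this depth. Bern libraries had counts for 24 to 38 of the 47 genes and Crick libraries for 35 to 46.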

How the data were processed

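Nuclear RNA of 32 libraries was sequenced as 75-base single-end reads, per the labels' protocols. The authors deposited expected counts per gene; RSEM 1.3.0, STAR 2.5.2, DESeq2 1.10.1 and the build GRCm38 are named in the submitters' processing notes, with no role given. Ensembl identifiers were matched to GENCODE M21 symbols (51719 matched, 193 did not). The expected counts were rounded to whole numbers and tested with edgeR 4.0.16 (TMM scaling, filterByExpr, quasi-likelihood test, Benjamini-Hochberg over all genes tested, threshold 0.05) in R 4.3.3 with limma 3.58.1. All 32 libraries entered the sort comparison and the interactions with sort, and the 16 libraries of a sort entered the segment and facility comparisons, with the group as the factor and contrasts averaged over the other factor. Levels are CPM on TMM-scaled library sizes, and ± is SE for fold changes. Nuclear RNA holds much unspliced RNA, and whether intronic reads were counted is not given in the sources used here. The steps were tested on simulated counts.

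Values of some genes are not reported here; counts include them. Otherwise named are all receptor genes past the threshold in a comparison, those not past it in the comparison of sorts, and those below the filter; of each list of partner genes, up to 4 past the threshold with the largest changes are named. Abat, Slc32a1, Dlg1, Homer1 and the genes in the order of levels were named after their values were seen. The genes and lists were chosen with earlier results of these data known. Alternatives were DESeq2 1.42.0 (also its size factors in edgeR), no filter on low counts, a block for the replicate number, 1 fit over all 32 libraries, each library left out in turn, and 6 libraries left out together (for their mitochondrial share, pan-neuronal sum or macrophage markers). Expected counts do not give independent molecules, so floors cover counting error only.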

Additional observations from a re-analysis of the deposited data

Results flagged for a closer look

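In 13 of 131 pairs of a receptor gene and a group of 4 libraries, 1 library stood apart from the other 3 by Dixon's gap criterion. Pairs entered if the gene was called in a comparison and the group averaged at least 5 CPM. The 5% level of the criterion holds for independent normal values. Levels of genes that share libraries are not such values, so the count is not compared with chance. Bern_SiNeg 1 was high for Gria2 (50.4 CPM, against 0.296 to 5.13 CPM in the other 3), and its pan-neuronal sum was 771 CPM. Bern_SiNeg 2 was high for Grm8 (365 CPM, against 68.1 to 107 CPM). Bern_SiNeg 4 was low for Gria1 (0.769 CPM, against 24.9 to 26.03 CPM) and high for Grik4 (19.7 CPM, against 0.796 to 3.60 CPM).

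Bern_ColPos 1 held both Gabbr2 at 130 CPM (1.02 to 1.71 CPM in the other 3) and Gabra5 at 22.6 CPM (0.255 to 0.975 CPM). Bern_ColPos 4 was high for Grm8 (14.3 CPM, against 5.09 to 5.75 CPM), Bern_SiPos 1 for Grid1 (26.2 CPM, against 15.9 to 17.2 CPM), Bern_SiPos 4 for Gabre (56.1 CPM, against 1.55 to 4.26 CPM) and Crick_ColPos 2 for Gria3 (92.3 CPM, against 70.0 to 72.5 CPM). Bern_ColNeg 2 was low for Gria3 (66.5 CPM, against 123 to 129.8 CPM), and Bern_ColNeg 4 was low for Gabbr1 (129 CPM, against 173 to 180.4 CPM) and high for Gabrb1 (28.5 CPM, against 1.05 to 5.67 CPM).

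For 6 of the genes reported here the difference between colon and SI was not the same in the sorts, by a test of the interaction (edgeR). The log2 values, neuronal minus non-neuronal, were 7.96 for Grm8, -2.93 for Gria4, -2.68 for Grik1, -2.62 for Gria2, -2.27 for Grin1 and -4.28 for Gabre.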

How the results depend on the processing

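Of 7085 values of single genes under an alternative, 6901 kept their side of the threshold, 115 were no longer called and 68 became called. Among the 6901, values called in neither fit were not checked for direction. In 1 more value, called in 1 of the fits, the direction reversed. That one was Gabbr2 between colon and SI in neuronal nuclei: 0.07 with all libraries, and -2.30 (edgeR adjusted p = 0.00996) without Bern_ColPos 1. Its values without 1 library ranged from -2.30 to 0.36.

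Of receptor genes called between colon and SI in neuronal nuclei (5), 3 were called with the replicate block and 3 with all 32 libraries in 1 fit. Under the block Grm8 (adjusted p = 0.0665) and Grm3 (0.0762) lost the call. Between Bern and Crick in neuronal nuclei (2), 6 were called with DESeq2 (2 higher and 4 lower) and 1 each without the 6 libraries, with the replicate block and in the fit of 32. Between Bern and Crick in non-neuronal nuclei (4), 8 were called with DESeq2, 11 with no filter on low counts and 0 without the 6 libraries. In the interaction of segment and sort (7), 11 were called with no filter, and in that of sort and facility (0), 3 were. The cause was not tested.

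Leaving out 1 library gave 22 to 25 calls between sorts (24), 3 to 5 and 5 to 10 between segments in neuronal (5) and non-neuronal nuclei (8), 1 to 4 and 3 to 6 between facilities in neuronal (2) and non-neuronal nuclei (4), 6 to 10 for segment by sort (7), 0 for segment by facility (0) and 0 to 1 for sort by facility (0). Without the 6 libraries 23 were called between sorts, 20 higher and 3 lower, and Gabra5 (adjusted p = 0.143) and Gabrb2 (0.0809) lost the call. Gabrb1 (0.0544) lost it with DESeq2 size factors and Gabra5 (0.0752) with the test of DESeq2.

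The labels do not say that replicate numbers pair libraries, and not every pair of the same number correlated above 0.1, so they were not treated as pairs. Libraries of the same number correlated at a median r of 0.0252 (-0.323 to 0.487, 10 of 48 pairs over 0.1), other pairs at -0.00675, and 20 of 32 libraries correlated best with their own number, a hint from the data and not from the design. Between the sorts of the Crick mice, pairs of the same number reached r = 0.0687 to 0.27 in colon and 0.091 to 0.487 in SI, with 3 of 4 pairs over 0.1 in each. With the block 24 receptor genes were called between sorts, as without it. Further calls lost under it include Gabbr1 (0.0612) and Gabrq (0.0643) between segments in non-neuronal nuclei, and Gabre (0.065) in the interaction of segment and sort. Over all genes, the 960 calls between segments in neuronal nuclei became 1905 with DESeq2 and 1652 with no filter, and the 1787 in non-neuronal nuclei became 3190 with DESeq2, 764 without the 6 libraries and 2862 in the fit of 32. The 1344 calls between facilities in neuronal nuclei became 2663 with DESeq2 and 2155 with no filter, and the 1780 in non-neuronal nuclei became 4610 with DESeq2, 6373 with no filter, 745 without the 6 libraries and 3176 in the fit of 32. The interactions gave 1395 calls (2286 with DESeq2) for segment by sort, 1 (47 with DESeq2, 93 with no filter) for segment by facility and 44 (676 with DESeq2, 473 with no filter, 143 without the 6 libraries, 11 with the block) for sort by facility. Depth limits what can be said of genes under 1 CPM.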
